A study of Mus musculus with 6 samples.

Results

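The collagen chain genes are the rows of the deposited gene table whose symbol is Col, a number, the letter a and a number. The table holds 44 of them among 17761 genes: 11 fibrillar chains, 6 chains of the basement membrane collagen type IV, 6 chains of the type VI family, 9 FACIT chains (fibril-associated collagens with interrupted helices) and 12 chains of other collagens. The symbol alone chose them, with no measured value, although the family was taken up with earlier results of these data known. Total RNA depleted of ribosomal RNA was sequenced from 6 mouse libraries, 3 labelled Model and 3 labelled Control. Model libraries are from the acute thrombosis model, in which surgeons tied off the inferior vena cava, the main vein of the abdomen, and vein and clot were collected 24 hours later. The labels give the Control libraries no treatment or time, and they name the tissue of all 6 libraries as thrombus, so whether the Control libraries come from sham-operated or untouched veins is not given in the sources used here. Strain, sex and age are not given either. No label ties the libraries of a group to different mice. Each p-value below therefore sets the difference between the groups only against the spread among these libraries, and that spread may be technical.

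Collagens are extracellular proteins whose chains wind around each other into helical trimers. Fibrillar collagens form the load-bearing fibres of the vein wall, above all its adventitia, while type IV collagen forms the sheet-like network of the basement membrane under the endothelium and around smooth muscle cells. FACIT collagens sit on the surface of fibrils, and type VI collagen forms beaded filaments that link cells to the surrounding matrix. Collagen in the wall is also a ligand for platelets, which adhere to it where the endothelium is lost.

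Collagen chain genes changed in both directions. Of the 44 genes, 36 passed the filter on low counts and were tested. The transcripts of Col4a2 and Col12a1 were higher in Model libraries, and those of Col14a1, Col15a1, Col4a5, Col6a6 and Col5a1 were lower, at an adjusted p under 0.05 in edgeR's quasi-likelihood test. These 7 genes are 19.4% of the 36, beside 4.07% of all 13907 genes tested, where 2.71% were called higher and 1.36% lower. The other 29 collagen genes did not pass the test. The median log2 fold change of the 36 was -0.29, beside -0.01 over all genes tested, and single values ran between -3.58 and 3.45. Values of the Model and Control libraries did not overlap for 5 genes that were higher in Model and 12 that were lower, 47.2% of the 36, beside 23.5% of all genes tested, where 12.1% were higher and 11.4% lower. An unadjusted p under 0.05 was reached by 14 of the 36 genes, beside 15.8% of all genes tested.

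Depth ran between 25336173 and 38118463 counts per library. Levels below are CPM, the gene's counts scaled to a common library size with edgeR's TMM factors. On log2(CPM + 1), libraries of 1 group correlated at 0.852 to 0.936 and libraries of different groups at 0.766 to 0.870. Model 2 held far more liver transcript than the others, with 4780 CPM summed over 5 hepatocyte markers, against 29.9 to 525 CPM in the other 5 libraries. Control 1 had the lowest correlations with the Model libraries, 0.766 to 0.787. Leaving out both, 4 collagen calls remained: Col4a2, Col12a1, Col14a1 and Col15a1. Among 9 fibroblast markers none passed the test, and their summed level was 1971 to 2654 CPM in Model and 1801 to 3250 CPM in Control libraries. None of 8 smooth muscle markers passed either, but all 8 had negative fold changes and their summed level did not overlap, at 1349 to 3066 CPM in Model and 3521 to 5029 CPM in Control libraries. Among 6 pericyte markers 2 were called lower, but 3 had positive and 3 negative fold changes, with a median of 0.31. Their sums were 803 to 1297 CPM in Model and 1199 to 1566 CPM in Control libraries. Of 8 endothelial markers 1 was called higher, while 3 had positive and 5 negative fold changes. Their sums were 1805 to 2695 CPM in Model and 1825 to 2155 CPM in Control libraries. The Schwann cell list had 1 of 7 markers called lower, with sums of 195 to 324 CPM in Model and 419 to 674 CPM in Control libraries. Markers of neutrophils and platelets were higher in Model libraries: all 5 tested neutrophil markers of 6, with sums of 1996 to 5966 CPM against 27.4 to 84.9 CPM in Control libraries, and 5 of 5 platelet markers, with sums of 393 to 923 CPM against 49.4 to 147 CPM in Control libraries. Lymphocyte markers were lower: 3 of 4 B cell markers, with sums of 168 to 257 CPM in Model and 531 to 930 CPM in Control libraries, and 3 of 4 T cell markers, with sums of 55.0 to 121 CPM in Model and 197 to 568 CPM in Control libraries. Erythroid markers were higher in Model, with 3 of the 4 tested called. Their sums were 4450 to 26063 CPM in Model and 305 to 413 CPM in Control libraries. The 6 adipocyte markers held no call, with sums of 4255 to 7644 CPM in Model and 4753 to 6006 CPM in Control libraries. Of 4 skeletal muscle markers tested 1 was called higher, with sums of 141 to 665 CPM in Model and 351 to 483 CPM in Control libraries. Over all genes tested, 2.71% were called higher and 1.36% lower. No marker list had all its genes at 0 in a group. In bulk tissue, fewer cells of a type and less RNA per cell cannot be told apart, and the part of such cell types in the collagen values below was not tested.

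The called genes can be placed on the genome (mm10, the build of the submitters' notes, with GENCODE M21 gene models on the same assembly, GRCm38). Col4a2 (ENSMUSG00000031503) covers chr8:11312805-11449287 on the plus strand. Col12a1 (ENSMUSG00000032332) covers chr9:79598991-79718831 on the minus strand, and Col14a1 (ENSMUSG00000022371) covers chr15:55307750-55520803 on the plus strand. Col15a1 (ENSMUSG00000028339) lies at chr4:47208161-47313167, Col4a5 (ENSMUSG00000031274) at chrX:141475385-141689234 and Col5a1 (ENSMUSG00000026837) at chr2:27886425-28039514, all on the plus strand, and Col6a6 (ENSMUSG00000043719) lies at chr9:105687809-105828160 on the minus strand. RefSeq promoter windows were at hand for 35 of the 44 genes, among them 5 of the 7 called ones. These 5 are printed to show the sequence around their RefSeq starts. Each window runs 250 bases before to 50 bases after the RefSeq gene start on GRCm38.p6, 5′ to 3′ on the gene's own strand. The Col15a1 window ends at base 47208061, before the GENCODE start of the gene at base 47208161, so it does not hold that start. Capitals mark the matches, on either strand, to the word CCAAT, to the core promoter word TATAAA and to the GC box word GGGCGG, which general promoter factors can bind.
Col4a2, chr8:11312555-11312854, + strand: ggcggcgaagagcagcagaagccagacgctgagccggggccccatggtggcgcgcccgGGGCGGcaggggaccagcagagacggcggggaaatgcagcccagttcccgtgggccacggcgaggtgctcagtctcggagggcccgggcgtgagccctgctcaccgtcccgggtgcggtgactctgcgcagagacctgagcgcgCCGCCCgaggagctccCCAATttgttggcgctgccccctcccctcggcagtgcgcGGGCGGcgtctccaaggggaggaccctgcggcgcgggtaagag
Col15a1, chr4:47207762-47208061, + strand: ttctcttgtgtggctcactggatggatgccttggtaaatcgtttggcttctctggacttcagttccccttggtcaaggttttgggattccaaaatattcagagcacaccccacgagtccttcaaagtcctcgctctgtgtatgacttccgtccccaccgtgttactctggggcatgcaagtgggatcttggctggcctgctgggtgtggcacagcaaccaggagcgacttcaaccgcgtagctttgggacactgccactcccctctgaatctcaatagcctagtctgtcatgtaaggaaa
Col4a5, chrX:141475169-141475468, + strand: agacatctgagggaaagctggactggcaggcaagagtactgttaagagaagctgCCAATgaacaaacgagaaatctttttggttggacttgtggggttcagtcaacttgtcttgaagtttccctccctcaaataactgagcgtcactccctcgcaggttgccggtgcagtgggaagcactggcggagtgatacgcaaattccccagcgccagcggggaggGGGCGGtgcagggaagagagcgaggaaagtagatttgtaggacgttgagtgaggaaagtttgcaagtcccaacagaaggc
Col6a6, chr9:105828036-105828335, - strand: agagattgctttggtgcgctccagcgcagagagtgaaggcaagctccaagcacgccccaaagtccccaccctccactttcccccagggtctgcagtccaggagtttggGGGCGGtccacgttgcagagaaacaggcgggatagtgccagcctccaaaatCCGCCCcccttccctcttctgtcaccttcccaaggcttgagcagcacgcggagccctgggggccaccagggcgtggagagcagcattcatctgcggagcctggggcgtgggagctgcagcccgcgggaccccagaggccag
Col5a1, chr2:27886175-27886474, + strand: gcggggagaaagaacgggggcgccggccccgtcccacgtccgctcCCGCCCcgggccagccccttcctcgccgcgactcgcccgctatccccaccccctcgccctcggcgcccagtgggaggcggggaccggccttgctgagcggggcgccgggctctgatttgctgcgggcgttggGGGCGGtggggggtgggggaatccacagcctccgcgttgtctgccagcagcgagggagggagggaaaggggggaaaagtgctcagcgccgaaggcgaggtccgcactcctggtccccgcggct

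A GC box word stood in 23 of the 38 windows of collagen genes, some genes having more than 1 window, and in 35.7% of all 32851 windows of the table. CCAAT stood in 13 of the 38 and in 37.4% of all windows, and TATAAA in 5 of the 38 and in 13.6% of all. The Col4a2 window held 1 CCAAT and 3 GGGCGG matches, and it shares 78 bases with the window of its neighbour Col4a1, which starts on the opposite strand. The Col4a5 window held 1 CCAAT and 1 GGGCGG, and those of Col5a1 and Col6a6 held 2 GGGCGG each. The Col15a1 window, which ends before the GENCODE start of the gene, held none of the words. A match is a description of the letters in the window, not a binding site, and no match says only that these letters are not in it.

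**Figure D1:**
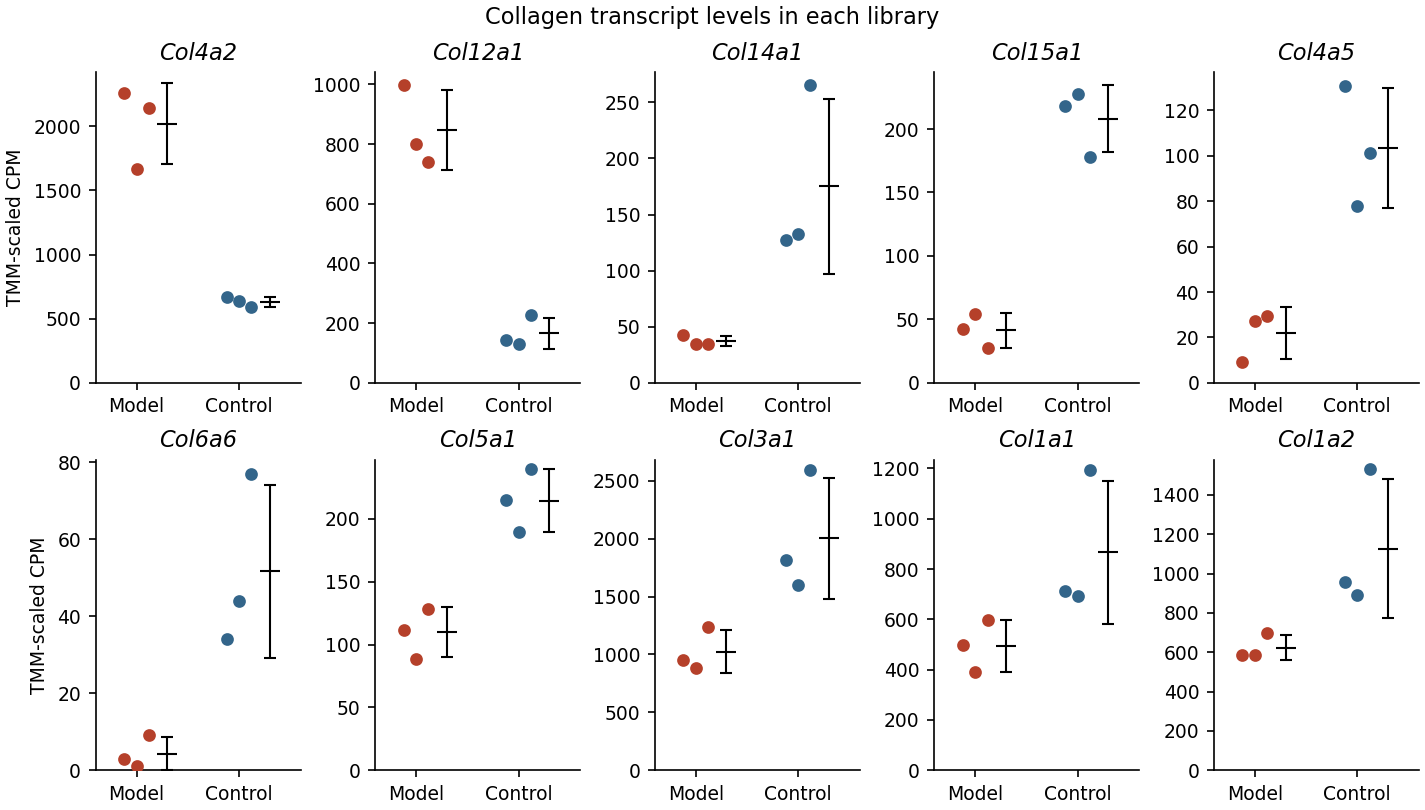
TMM-scaled CPM (vertical axes, each starting at 0) of 10 collagen chain genes in the 3 Model (left) and 3 Control (right) libraries, with the mean and SD beside the points. Col4a2 and Col12a1 stand higher in every Model library than in any Control library, and the other 8 genes shown stand lower in every Model library.

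Col1a1, Col1a2 and Col3a1 encode the chains of type I and type III collagen, the main fibrils of the vein wall. Col3a1 had 953, 883 and 1237 CPM in the Model libraries, against 1818, 1602 and 2596 CPM in the Control libraries. Col1a2 had 587, 588 and 696 CPM in Model, against 957, 891 and 1532 CPM in Control libraries. Col1a1 had 498, 389 and 596 CPM in Model, against 711, 691 and 1195 CPM in Control libraries. For each of these genes all Model libraries lay below all Control libraries, and Control 3 was the highest of the 6. The log2 fold change was -0.97 (SE 0.29) for Col3a1, -0.85 (SE 0.27) for Col1a2 and -0.81 (SE 0.29) for Col1a1, and none passed the edgeR test, with adjusted p-values of 0.0886, 0.121 and 0.170. All 3 passed in DESeq2, at adjusted p-values of 0.00229, 0.0134 and 0.0399, and Col3a1 also in limma-voom (0.0167), where Col1a2 (0.0626) and Col1a1 (0.107) did not pass. The calls thus depend on the tool, while the direction does not. DESeq2 called 8.75% of all genes tested.

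Type V collagen nucleates fibrils and sets their diameter, and Col5a1 encodes its chain that is present in nearly every type V molecule. Col5a1 had 112, 88.7 and 129 CPM in Model libraries, against 215, 189 and 239 CPM in Control libraries, with no overlap. It fell by 0.97 on the log2 scale (SE 0.24, edgeR adjusted p = 0.0466). This was the weakest of the 7 calls: it was lost when any 1 of the 6 libraries was left out, with adjusted p-values of 0.0661 to 0.185, and under limma-voom at 0.0552. Its partner chain Col5a2 averaged 205 ± 21.2 CPM in Model and 179 ± 21.2 CPM in Control libraries (SD, n = 3 each), with a log2 fold change of 0.19 (SE 0.23, edgeR adjusted p = 0.773). The third type V chain, Col5a3, averaged 109 ± 32.5 CPM in Model and 93.4 ± 58.2 CPM in Control libraries (SD, n = 3 each), and its values overlapped. The type XI chains, cousins of type V that are best known from cartilage, were scarce. Col11a2 had 41.3, 18.8 and 7.80 CPM in Model, against 0.821, 6.16 and 2.97 CPM in Control libraries, and Col11a1 had 8.85, 6.59 and 1.77 CPM in Model, against 5.26, 18.2 and 9.07 CPM in Control libraries. Neither passed, with log2 fold changes of 2.77 (SE 0.999) for Col11a2 and -0.92 (SE 1.05) for Col11a1, and edgeR adjusted p-values of 0.178 and 0.761. Values of Col11a2 did not overlap, and it passed in DESeq2 (adjusted p = 0.0230), while those of Col11a1 overlapped. Col27a1, another minor fibrillar chain, had 2.46, 0.291 and 9.49 CPM in Model, against 0.906, 13.5 and 27.3 CPM in Control libraries. The fibrillar class thus had 0 genes called higher and 1 called lower of 9 tested, beside 2.71% and 1.36% of all genes tested. Its median log2 fold change was -0.85.

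Type IV collagen differed from chain to chain. Col4a2, whose chain forms the common type IV network together with that of Col4a1, had 2255, 1666 and 2139.7 CPM in Model libraries, against 667, 642 and 591 CPM in Control libraries. Every Model library lay far above every Control library, and the group means were 2020.1 ± 312 CPM in Model and 633 ± 38.8 CPM in Control libraries (SD, n = 3 each). It rose by a log2 fold change of 1.67 (SE 0.26, edgeR adjusted p = 0.00296), and the call held whichever library was left out, with log2 fold changes of 1.58 to 1.79. Col4a1 lies head to head with Col4a2 on the opposite strand, the starts overlapping by 22 bases, and the table gives it almost nothing: 6, 50 and 6 counts in Model libraries, against 20, 20 and 10 counts in Control libraries. The same libraries held 55816, 45743 and 54313 counts of Col4a2 in Model, against 23553, 26354 and 20058 counts in Control. Since the pair is known to be transcribed from a shared promoter and to form a joint molecule, the Col4a1 value is not read here as an expression level. Whether its reads were counted under Col4a2 or dropped was not tested, and the level of Col4a2 carries the same doubt.

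The other 4 type IV genes stood lower in every Model library than in any Control library, as did 11.4% of all genes tested. Of the 4, 1 passed the test. Col4a5 encodes a chain of the networks found in kidney and around smooth muscle. It had 9.05, 27.3 and 29.6 CPM in Model, against 131, 78.0 and 101 CPM in Control libraries, with no overlap, and fell by 2.23 on the log2 scale (SE 0.46, edgeR adjusted p = 0.0171). The call was lost without Control 1, the library with the highest value, at an adjusted p of 0.0667 and a log2 fold change of -2.04. Col4a6, its head-to-head neighbour 1308 bases away and its partner around smooth muscle, had 14.5, 4.73 and 16.2 CPM in Model, against 18.9, 45.2 and 44.1 CPM in Control libraries. Its groups did not overlap either, and its log2 fold change of -1.61 (SE 0.64) did not pass (edgeR adjusted p = 0.225). Col4a3 and Col4a4, which lie head to head 71 bases apart and form the kidney network with Col4a5, averaged 4.21 ± 3.35 and 1.76 ± 1.26 CPM in Model libraries, against 16.3 ± 5.91 and 14.1 ± 8.67 CPM in Control libraries (SD, n = 3 each). Neither passed the edgeR test, with log2 fold changes of -1.95 (SE 1.013) and -2.997 (SE 1.20) and adjusted p-values of 0.384 and 0.234. Values of neither overlapped between groups, and Col4a4 passed in DESeq2 (adjusted p = 0.0374). Among the 6 type IV genes 1 was called higher and 1 lower, beside 2.71% and 1.36% of all genes tested. Their median log2 fold change of -1.78 includes the value of Col4a1, which is not read as an expression level. The 8 smooth muscle markers, whose summed level was also lower in the Model libraries, were given above, and their part in the values of Col4a5 and Col4a6 was not tested.

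FACIT chains held the steepest call upwards. Col12a1, whose product coats fibrils in tissues under load and bridges them to other matrix molecules, had 996, 800.3 and 741 CPM in Model libraries, against 145, 129 and 226 CPM in Control libraries. The lowest Model library was above the highest Control library by a wide margin. Col12a1 rose by a log2 fold change of 2.34 (SE 0.28, edgeR adjusted p = 0.000536), with a range of 2.18 to 2.62 when single libraries were left out. Col14a1, whose product binds fibrils in a similar way and limits their diameter, went the other way. It had 42.5, 34.9 and 34.7 CPM in Model libraries, against 127, 132 and 265 CPM in Control libraries, and fell by 2.23 on the log2 scale (SE 0.34, edgeR adjusted p = 0.00256). Model libraries of Col14a1 lay close together and below all Control libraries, of which Control 3 stood at about the level of the other Control libraries added together. Without single libraries its log2 fold change was -2.43 to -1.80.

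The remaining FACIT chains were low or variable. Col16a1 had 86.1, 42.9 and 25.4 CPM in Model, against 26.5, 29.9 and 28.5 CPM in Control libraries, where Model 1 was the high library and the groups overlapped. Col20a1 had 31.0, 28.7 and 5.55 CPM in Model, against 0.453, 8.30 and 11.2 CPM in Control libraries. Col9a3, a chain of the cartilage collagen type IX, had 2.42, 7.87 and 1.85 CPM in Model, against 0.0283, 1.29 and 0.0294 CPM in Control libraries. Its groups did not overlap, but the log2 fold change of 3.15 (SE 1.98) did not pass the edgeR test (adjusted p = 0.495), and 6.07% of its exon bases are shared with Tcfl5 on the other strand. Col19a1 had 6.54, 0 and 0 CPM in Model, against 2.72, 4.65 and 7.51 CPM in Control libraries, and Col22a1 reached 3.74 CPM in Model 3 and at most 1.39 CPM in the other libraries. Of the 7 FACIT genes tested, 1 was called higher and 1 lower, beside 2.71% and 1.36% of all genes tested. Their median log2 fold change was 0.86.

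The common type VI chains, which together build the standard type VI molecule, held no call. Col6a1 had 277, 203 and 209 CPM in Model, against 217, 229.7 and 272 CPM in Control libraries, a log2 fold change of -0.06 (SE 0.24). Col6a2 had 319, 208 and 205 CPM in Model, against 202, 151 and 199.6 CPM in Control libraries, a log2 fold change of 0.41 (SE 0.26) whose groups just failed to overlap. Col6a3 had 336, 321 and 349 CPM in Model, against 459.7, 347 and 438 CPM in Control libraries, a log2 fold change of -0.31 (SE 0.22). None of the 3 passed the edgeR test, with adjusted p-values of 0.949, 0.502 and 0.575, which does not show that their levels were equal.

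The alternative type VI chains, each of which can take the place of the Col6a3 chain, lie side by side on chromosome 9. Col6a6 had 2.79, 1.09 and 9.06 CPM in Model libraries, against 34.2, 43.8 and 76.8 CPM in Control libraries. No Model library came near a Control library, and Col6a6 fell by 3.58 on the log2 scale (SE 0.77, edgeR adjusted p = 0.0205), the lowest fold change of the 36 genes. The call was lost without Model 1 (adjusted p = 0.0877), without Control 3 (0.109) and under limma-voom (0.0917). Col6a5, the next gene on the same strand 27917 bases away, had 20.8, 45.6 and 84.7 CPM in Model, against 84.6, 76.5 and 132 CPM in Control libraries, where Model 3 reached the Control range. Col6a4, 28810 bases beyond, had 39.1, 31.1 and 26.7 CPM in Model, against 41.9, 22.3 and 53.4 CPM in Control libraries, and its groups overlapped. Their log2 fold changes were -0.96 (SE 0.46) and -0.28 (SE 0.45), and neither passed. In the type VI class 0 genes were called higher and 1 lower of 6, beside 2.71% and 1.36% of all genes tested. The median log2 fold change of the class was -0.29.

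Among the other collagens, 1 of 8 tested genes was called, beside 4.07% of all genes tested. Col15a1, which encodes a collagen of basement membrane zones around vessels and muscle, had 42.6, 54.0 and 27.3 CPM in Model libraries, against 218, 228 and 178 CPM in Control libraries. All Model values were far below all Control values, and Col15a1 fell by 2.33 on the log2 scale (SE 0.30, edgeR adjusted p = 0.000877), with a range of -2.58 to -2.11 when single libraries were left out. Col18a1, the closest relative of Col15a1 and the source of endostatin, averaged 143 ± 7.23 CPM in Model and 172 ± 34.2 CPM in Control libraries (SD, n = 3 each), with overlapping groups and a log2 fold change of -0.27 (SE 0.24, edgeR adjusted p = 0.667). Col8a1, a short-chain collagen of vessel walls, had 18.3, 8.01 and 12.8 CPM in Model, against 29.8, 13.9 and 13.9 CPM in Control libraries, and did not pass. Col17a1, a transmembrane collagen of epithelial hemidesmosomes, had 40.3, 33.0 and 0.512 CPM in Model, against 0.679, 4.16 and 1.88 CPM in Control libraries. Model 3 lay with the Control libraries, and the log2 fold change of 3.45 (SE 1.28) did not pass (edgeR adjusted p = 0.192) but did without Model 3 (0.0398), without the filter on low counts (0.0268) and in DESeq2 (0.0191). The 5 mesothelial markers summed to 29.7 to 178 CPM in Model and 19.2 to 72.0 CPM in Control libraries, lowest in Control 1 and Model 3. Upk1b alone had 130, 122 and 9.85 CPM in Model, against 2.24, 38.7 and 39.8 CPM in Control libraries. In the Model libraries Upk3b had 26.5, 8.08 and 1.18 CPM and Lrrn4 had 21.2, 0.0364 and 2.88 CPM. Msln had 0.0404, 10.9 and 3.31 CPM there, and Wt1 had 0.0808, 2.22 and 12.5 CPM. The markers thus differed in which Model library was the highest. Of the 5 markers 4 had positive and 1 a negative fold change, and 0 were called. Their part in the values of Col17a1 was not tested. Col23a1, another transmembrane collagen, had 2.83, 5.97 and 3.90 CPM in Model, against 6.68, 23.6 and 17.6 CPM in Control libraries, with no overlap and no call. Col13a1, Col7a1 and Col28a1 had overlapping groups and log2 fold changes of 1.39, -0.01 and -0.21 that did not pass.

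The filter on low counts removed 8 collagen genes, and most of their reads came from 1 or 2 libraries each. Col2a1, the main cartilage fibril chain, had 0, 71 and 4 counts in Model libraries and 0 counts in each Control library. Col9a2 had 1, 6 and 3 counts in Model, against 0, 82 and 83 counts in Control libraries, and Col26a1 had 1, 0 and 0 counts in Model, against 0, 74 and 42 counts in Control libraries. Col8a2 had 5, 0 and 0 counts in Model, against 1, 64 and 38 counts in Control libraries. These last 3 genes were thus seen mainly in Control 2 and Control 3. Col24a1, Col10a1, Col9a1 and Col25a1 reached at most 7 counts in any library. A count of 0 allows up to 3 counts, which is 0.0787 to 0.118 CPM at these depths, for counting error only. The 5 chondrocyte markers found in the table summed to 0.444 to 6.42 CPM in Model and 7.07 to 11.1 CPM in Control libraries. Their part in these counts was not tested.

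**Figure D2:**
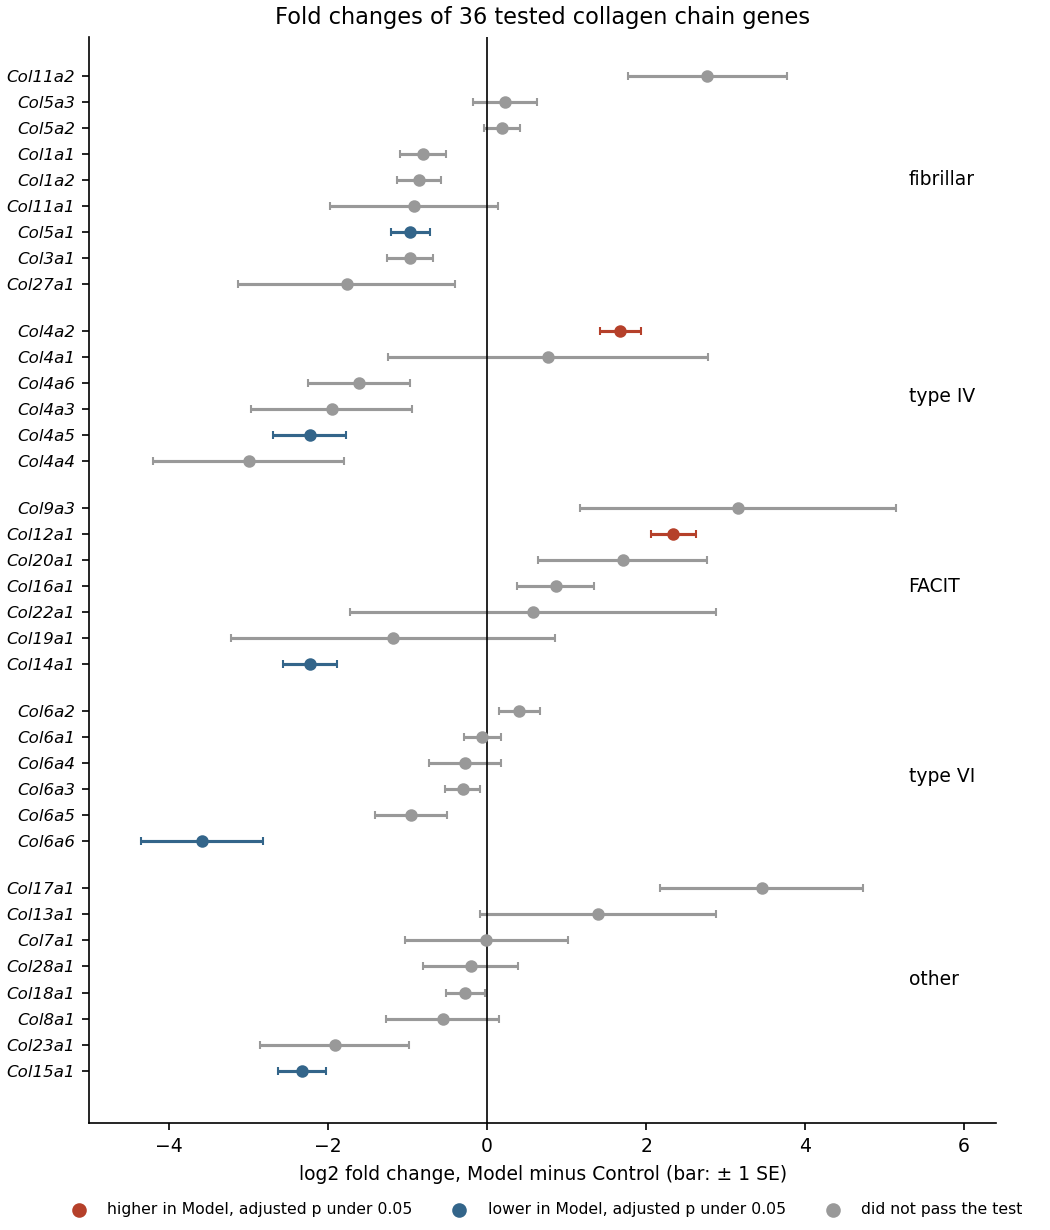
Log2 fold changes, Model minus Control (horizontal axis, bars ± 1 SE), of the 36 tested collagen chain genes grouped by class, coloured by the result of the edgeR test. Calls in both directions stand side by side in the type IV and FACIT classes, while the fibrillar, type VI and other classes each hold 1 call, downwards.

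All collagen chain genes together took 0.671%, 0.580% and 0.717% of the counts of the Model libraries, against 0.644%, 0.671% and 0.928% of the Control libraries. The Control 3 value was the highest and the groups overlapped, with means of 0.656 ± 0.070% in Model and 0.748 ± 0.157% in Control libraries (SD, n = 3 each). Wilson 95% intervals on these shares reached at most 0.003 percentage points to either side, far less than the spread between libraries. The make-up of the collagen counts differed more than their sum. Col4a2 took 30.9%, 28.0% and 29.9% of the collagen counts in Model, against 9.98%, 10.3% and 6.77% in Control libraries, and Col12a1 took 13.6%, 13.4% and 10.4% in Model, against 2.18%, 2.08% and 2.60% in Control libraries. Col3a1, Col1a1 and Col1a2 together took 27.9%, 31.2% and 35.3% in Model, against 52.2%, 51.1% and 61.0% in Control libraries. For these quantities the groups did not overlap, while the type VI chains averaged 13.2 ± 0.728% in Model and 14.3 ± 1.10% in Control libraries (SD, n = 3 each). Shares of 1 total depend on each other, so a larger share of Col4a2 lowers all other shares. The doubt over the reads of Col4a1, given above, therefore reaches these shares as well.

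**Figure D3:**
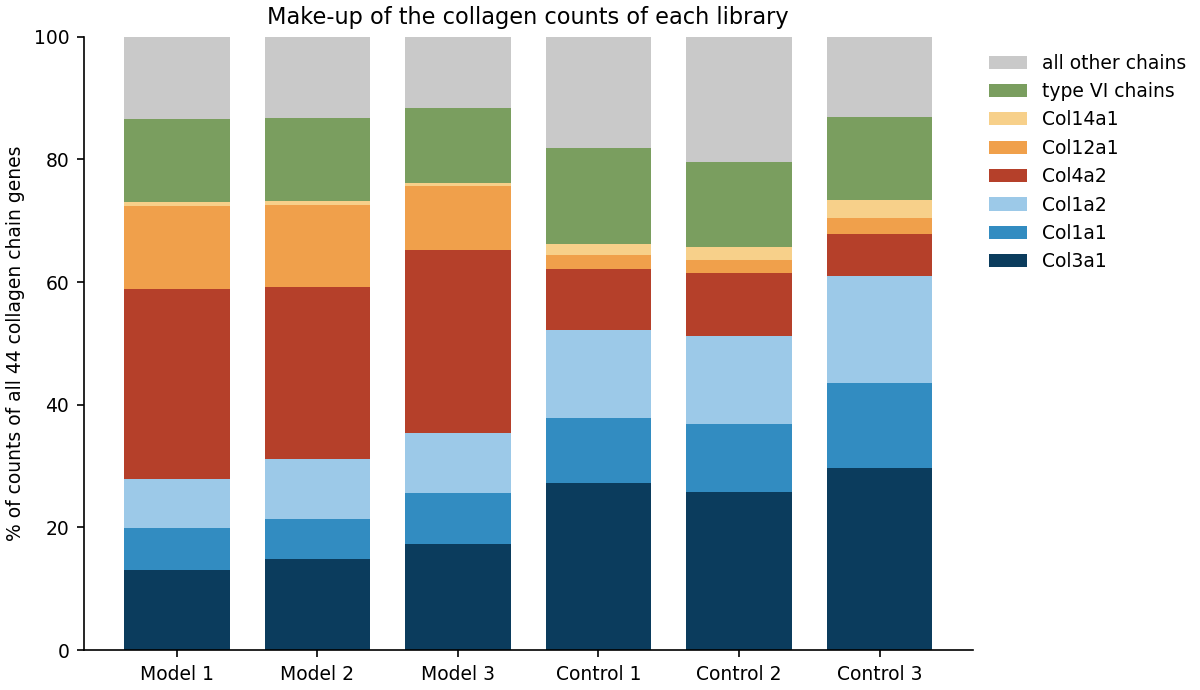
Percentage of the counts of all 44 collagen chain genes (vertical axis, 0 to 100) taken by single chains and classes in each Model (left) and Control (right) library. Col4a2 and Col12a1 fill a larger piece of each Model bar, and the type I and III chains a larger piece of each Control bar.

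Levels of different genes can be compared only per length. Per kilobase of exon, the highest collagen transcripts of Model libraries were Col4a2 (305 CPM per kb), Col3a1 (104), Col1a1 (75.3), Col12a1 (55.5), Col6a1 (52.5) and Col1a2 (50.2). In Control libraries the same genes stood at 95.6 CPM per kb for Col4a2, 204 for Col3a1, 132 for Col1a1, 10.96 for Col12a1, 54.7 for Col6a1 and 90.7 for Col1a2. Col4a2 was thus the first collagen transcript in Model and the third in Control libraries, and Col12a1 was the fourth in Model and number 15 in Control libraries. Ranks of Col4a2, on either length, carry the doubt over the reads of Col4a1 given above. The length of the longest coding transcript was also used in place of the merged exons, a choice made after seeing the data. Col4a2 then stood at 313 CPM per kb in Model (first) and 98.1 in Control libraries (the fourth). Col12a1 stood at 73.5 in Model (the fifth) and 14.5 in Control libraries (number 15). The place of Col1a2 depended on the length used. On the longest transcript Col1a2 had 117 in Model (number 3) and 211 in Control libraries (number 2), above Col1a1 at 83.4 and 146.

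Pairs of chains can be set against each other within a library, which removes the scaling between libraries. The pairs were chains of the same collagen type, apart from Col3a1 and Col1a1, which belong to types III and I. Of 9 pairs, 7 had enough counts for an exact permutation test of the log2 ratio, two-sided, for which 3 against 3 libraries cannot go below p = 0.1. Col5a1 over Col5a2 was 0.558, 0.476 and 0.564 in Model, against 1.19, 1.20 and 1.20 in Control libraries. All Model ratios lay below all Control ratios, which were almost equal, and the mean log2 ratio differed by -1.17 (exact p = 0.1, Benjamini-Hochberg adjusted 0.35 over 7 pairs). Col6a1 over Col6a2 was 0.869, 0.976 and 1.02 in Model, against 1.08, 1.52 and 1.36 in Control libraries. The log2 difference was -0.45 (exact p = 0.1, adjusted 0.35), also with no overlap. Col1a1 over Col1a2, the type I pair, was 0.849, 0.661 and 0.857 in Model, against 0.743, 0.776 and 0.780 in Control libraries, so the groups overlapped and the log2 difference was 0.03 (exact p = 1). Col3a1 over Col1a1 differed by -0.17 on the log2 scale (exact p = 0.2, adjusted 0.467). The pairs Col6a3 over Col6a1, Col4a3 over Col4a4 and Col4a5 over Col4a6 differed by -0.23, 0.88 and -0.68 on the log2 scale, with exact p-values of 0.5, 0.6 and 0.5. No ratio could pass the threshold in this design, and the largest of these differences that separated the groups was that of the type V pair.

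**Figure D4:**
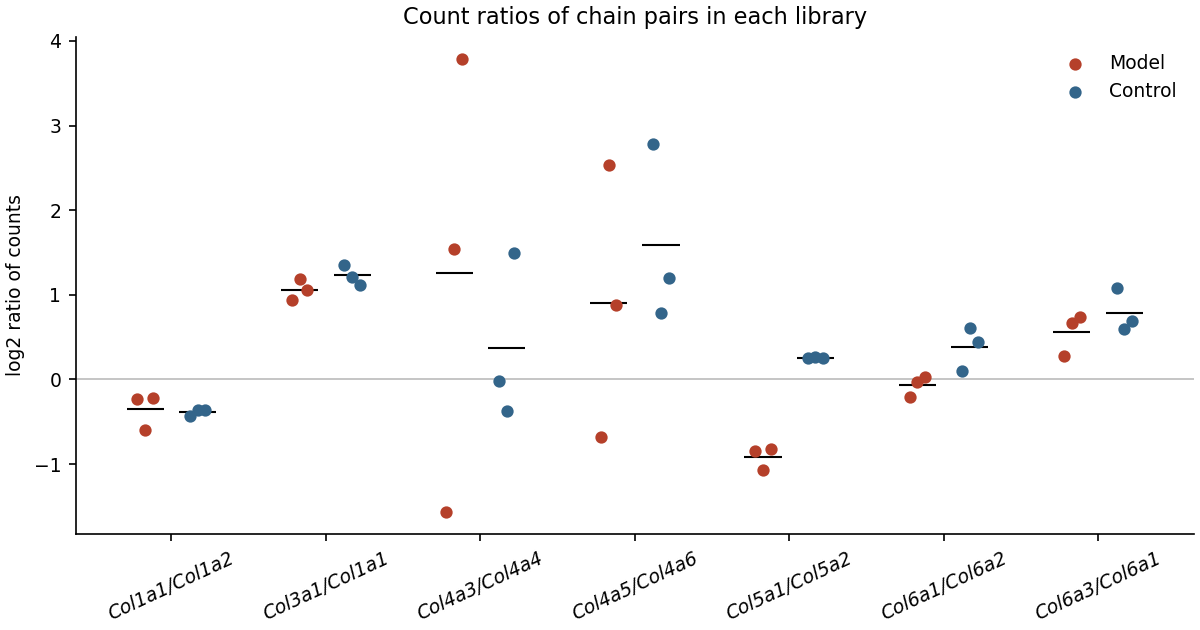
Log2 ratio of the counts of chain pairs (vertical axis) in the Model (left points of each pair) and Control (right points) libraries, with group means as lines. Only Col5a1 over Col5a2 and Col6a1 over Col6a2 separate the groups, with log2 differences of -1.17 and -0.45.

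The enzymes and partners of collagen were taken as lists beside the chains, to place them in their pathway. Of the 20 genes of chain synthesis and folding, 19 were tested, 1 was called higher and none lower, beside 2.71% higher and 1.36% lower over all genes tested, so the count of calls is near the background. The median log2 fold change was 0.55, beside -0.01 over all genes tested, and 2 genes were called higher without Control 1 and 3 in DESeq2 or without the filter. P4hb, the protein disulfide isomerase that is also a subunit of prolyl 4-hydroxylase, averaged 709 ± 106 CPM in Model and 208 ± 48.0 CPM in Control libraries (SD, n = 3 each), with a log2 fold change of 1.77 (SE 0.26, edgeR adjusted p = 0.00188). Of 13 genes of procollagen processing and crosslinking, 11 were in the table under their symbol and 10 were tested. Among them 2 were called higher and none lower, with a median of 0.82. Lox, the lysyl oxidase that starts the crosslinking of fibrils, had 495, 381 and 683 CPM in Model, against 30.3, 52.2 and 39.3 CPM in Control libraries. Lox rose by a log2 fold change of 3.68 (SE 0.32, edgeR adjusted p = 5.42e-05), and Loxl1, a relative linked to elastic fibres, by 2.13 (SE 0.37, adjusted p = 0.00603). The calls of P4hb, Lox and Loxl1 held in all 14 alternatives. Their direction was opposite to the fold changes of the main fibrillar chains Col1a1, Col1a2 and Col3a1, which did not pass the test.

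Proteoglycans and other fibril partners had negative fold changes in 11 of 12 genes, with a median of -0.64, beside -0.01 over all genes tested. Of the 12, 2 were called lower, beside 1.36% of all genes tested, and 0 in limma-voom or without both Control 1 and Model 2. Ogn, the small leucine-rich proteoglycan osteoglycin, averaged 23.0 ± 7.80 CPM in Model and 81.1 ± 26.9 CPM in Control libraries (SD, n = 3 each), with a log2 fold change of -1.82 (SE 0.42, edgeR adjusted p = 0.0307). Podn, podocan of the same family, averaged 21.7 ± 9.06 CPM in Model and 69.1 ± 5.43 CPM in Control libraries (SD, n = 3 each), and fell by 1.67 on the log2 scale (SE 0.42, edgeR adjusted p = 0.0420). Both calls hung on single libraries: Podn lost its call without any library other than Model 1, at adjusted p-values of 0.0836 to 0.135, and Ogn without Model 2, Model 3, Control 2 or Control 3, at 0.0738 to 0.132.

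Of 8 genes for collagen-cleaving proteases 7 were tested. Among these, 3 were called higher, beside 2.71% of all genes tested, with a median log2 fold change of 1.51. In limma-voom, or without both Control 1 and Model 2, 1 was called higher. Mmp8, the neutrophil collagenase, averaged 147 ± 117 CPM in Model and 1.75 ± 0.734 CPM in Control libraries (SD, n = 3 each), with a log2 fold change of 6.39 (SE 0.65, edgeR adjusted p = 0.000159) that did not pass in limma-voom (0.0604). Mmp9, a gelatinase that neutrophils store, averaged 103 ± 68.0 CPM in Model and 6.80 ± 5.75 CPM in Control libraries (SD, n = 3 each), with an edgeR adjusted p of 0.0215 that was 0.0647 without Model 2 and 0.0758 in limma-voom. Mmp14, a membrane-bound collagenase of stromal and other cells, averaged 202 ± 31.8 CPM in Model and 70.6 ± 32.7 CPM in Control libraries (SD, n = 3 each), with an edgeR adjusted p of 0.0226 that was 0.0661 to 0.0921 without Model 1, Control 1 or Control 2. The neutrophil markers were higher in the same libraries, and their part in the values of Mmp8 and Mmp9 was not tested. Among 10 collagen receptors 1 was called higher and 0 lower, beside 2.71% and 1.36% of all genes tested. The called gene was Gp6, the platelet collagen receptor glycoprotein VI, at 22.3 ± 17.9 CPM in Model and 0.441 ± 0.181 CPM in Control libraries (SD, n = 3 each). Its log2 fold change of 5.65 (SE 1.09, edgeR adjusted p = 0.0115) was 4.76 without Model 1, where the adjusted p was 0.121, beside 0.122 in limma-voom, and all 5 platelet markers were higher in the same libraries.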

How the data were processed

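Total RNA of 6 mouse libraries, 3 Model and 3 Control by their titles, was depleted of ribosomal RNA and sequenced on an Illumina sequencer, per the labels' protocols. Reads were trimmed with cutadapt 1.9.3, per the labels' protocols, and STAR 2.5.1b, edgeR 3.16.5 and the build mm10 are listed without a role in the submitters' processing notes. Not given in the sources used here are the counting tool, its annotation and its use of strand, so genes that overlap on opposite strands may share reads. The values used are the deposited raw counts per gene, and 6 normalized per-sample columns of the same table were not used.

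Counts of all 17761 genes were filtered with edgeR's filterByExpr (minimum count 10), scaled by TMM and tested by edgeR's quasi-likelihood test (edgeR 4.0.16, R 4.3.3), Model minus Control, with Benjamini-Hochberg adjustment over all 13907 genes tested and a threshold of 0.05. CPM are counts divided by the TMM-scaled library size, times 1000000. DESeq2 1.42.0 and limma-voom (limma 3.58.1) were alternatives, beside other scalings, other filters, a replicate block and the omission of libraries. The fits were tested on simulated data. Gene models came from GENCODE M21 by gene identifier (17555 of 17761 matched), and the lists were matched by symbol in the table or in GENCODE. Chain ratios were compared by exact permutation tests (scipy 1.17.1), and shares carry Wilson 95% intervals, which cover counting error only, as does the limit of 3 counts for a count of 0.

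The members and gene lists were chosen with earlier results of these data known, so no list is independent evidence. Named were all collagen genes past the test, the 2 largest changes in each direction per class, a fixed set of major chains, all genes the filter removed, and up to 3 called genes per list and direction. Per-gene values of the remaining collagen chains were added to show the data.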

Additional observations from a re-analysis of the deposited data

How the results depend on the processing

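The calls of Col4a2, Col12a1, Col14a1 and Col15a1 held in all 14 alternatives. Collagen genes called lower, 5 in the reported fit, were 3 to 4 when single libraries were left out, 9 in DESeq2 and 2 without both Control 1 and Model 2, and those called higher, 2 in the reported fit, were 4 in DESeq2. Over all genes, 377 higher and 189 lower became 221 to 312 higher and 92 to 136 lower without single libraries, 222 and 63 without both Control 1 and Model 2, 642 and 469 without the filter, 639 and 578 in DESeq2, and 115 lower in limma-voom. Replicate numbers do not pair the libraries: deviations of same-numbered libraries correlated at -0.0149 to 0.0509, and a replicate block kept all 7 collagen calls, with 379 genes higher and 196 lower over the table. Signs turned only for genes that did not pass. Their log2 fold changes without single libraries ran from -4.35 to 1.14 for Col22a1, -1.17 to 0.21 for Col28a1, -0.90 to 1.18 for Col4a1, -0.074 to 0.86 for Col5a3, -0.22 to 0.039 for Col6a1, -0.56 to 0.0064 for Col6a4 and -1.285 to 1.085 for Col7a1. Col22a1 also had -2.93 with the block and -0.40 in limma-voom, and without both Control 1 and Model 2 Col28a1 had 0.50, Col7a1 1.53 and Col8a1 0.17. The cause of these changes was not tested. The collagen share of all counts differed by -0.143 to -0.0013 percentage points without single libraries, closest to 0 without Control 3. Depth limits the chains with under about 10 counts, and 3 libraries per group limit every test.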
